A study of Mus musculus with 36 samples.

Results

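Expression in cells of the stria vascularis of 9-month-old CBA/J mice was set against that at 1 and 26 months, the other ages of the series. Genes were chosen by where their values lie: a gene stands apart at 9 months when its values in all 3 libraries of that age lie above, or all below, every value of the 6 libraries of the other ages. Of 15806 genes with at least 0.1 RPKM (a read count scaled to the length of the transcript and to the mapped reads of its library) in at least 3 of the 9 libraries, 4474 stood apart, 3513 above and 961 below, and 11332 overlapped. CBA/J is an inbred strain, mice of either sex were used, and the labels name no treatment at any age. Each library was a pool of cells from 4 cochleae of 2 mice, estimated at 1000 cells, so marginal, intermediate and basal cells were measured together. Each library was sequenced in 4 runs and is given in the deposited table as 1 RPKM value per gene. The notes sheet of that table writes another age beside the columns named 26 months, and the age in the labels is used.

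The stria vascularis is the vascularised epithelium of the cochlear lateral wall. Its marginal cells secrete potassium into the endolymph, its intermediate cells are melanocyte-derived and carry the potassium channel Kcnj10, and its basal cells seal the tissue from the spiral ligament with tight junctions. Together with the fibrocytes of the ligament, coupled by gap junctions, these cells recycle potassium and generate the endocochlear potential, the voltage that drives current through hair cells.

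Some properties of the libraries touch every result below. Over the 500 most abundant genes, the median absolute log2 ratio was 0.028 between libraries A and C at 9 months, 0.024 between B and C at 1 month and 0.016 to 0.028 between the libraries at 26 months, whereas the remaining pairs of the same age ranged over 0.083 to 0.17. The labels describe 3 independent samples per age, and the study's methods are not uniform on the number of biological replicates and mention technical repeats. Independence within an age was not tested, and SDs and p-values measure only the spread between them. Xist, which is expressed from the inactive X chromosome of females, had 1.82, 1.18 and 2.05 RPKM at 9 months, against 0.3, 0.3 and 0.225 RPKM at 1 month and 0.55, 0.575 and 0.625 RPKM at 26 months. Its 9-month values lay above those of the other ages, so sex make-up and age cannot be told apart. The Y-linked Ddx3y had 6.88, 4.45 and 7.55 RPKM at 9 months, against 7.05, 6 and 6 RPKM at 1 month and 12.3, 12.2 and 12.3 RPKM at 26 months, so its 9-month values overlapped those at 1 month. The Y-linked Eif2s3y, Kdm5d and Uty did not stand apart at 9 months either. At 9, 1 and 26 months, Eif2s3y averaged 4.19, 4.98 and 5.01 RPKM. Kdm5d averaged 0.683, 0.517 and 0.767 RPKM and Uty 1.41, 1.21 and 1.88 RPKM, in the same order of ages. Genes that define marginal and intermediate cells were abundant at each age, summing to 3065 to 3307 and 7623 to 7985 RPKM at 9 months, against 2577 to 2627 and 8192 to 8419 RPKM at 1 month and 3036 to 3041 and 7679 to 7741 RPKM at 26 months. The number of reads behind a value is unknown, since the table holds no counts.

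Far more genes lay above than below at 9 months. Genes above made up 22.2% of those tested and genes below 6.08%. A linear model (limma) compared the 9-month mean with the average of the 1-month and 26-month means on log2(RPKM + 0.1), and a gene was called where its p, adjusted by Benjamini-Hochberg over all genes tested, was 0.1 or less and its log2 difference 1 or more in size. It called 677 genes higher (4.28%) and 174 lower (1.1%). Of the genes above, 645 were also called higher, and of the genes below, 90 were also called lower. The rule and the model use the same values, so neither is support for the other. The nearest libraries of a gene above differed by a median of 1.19-fold, and 177 genes had a gap of at least 2-fold. For genes below, the median was 1.09-fold and 19 genes had a gap of at least 2-fold. Library B decided part of these counts: without it, 5053 genes lay above and 1562 below. Leaving out a library can only add genes to a count of this kind.

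**Figure D1:**
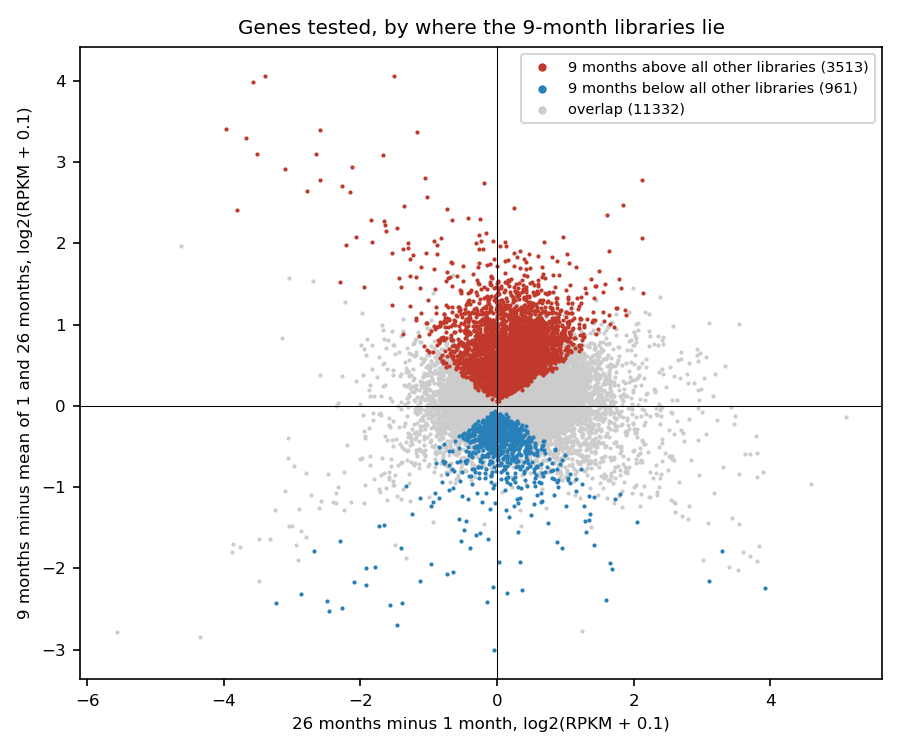
Each point is a gene tested. The x axis gives 26 months minus 1 month and the y axis 9 months minus the mean of both, in log2(RPKM + 0.1). The 3513 genes above are in red, the 961 below in blue and the 11332 that overlap in grey, and each of the genes with a difference above 3 lies where 26 months is below 1 month.

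The excess of genes above depended on the scaling of the libraries. Over all genes tested, the median log2 difference was 0.14, so a gene at that value is level with the rest. With quantile normalization, 2377 genes lay above and 1986 below, and with median of ratios scaling 2590 and 2163. As deposited, 78.5% of the genes that stood apart were above, against 54.5% under either scaling. The model's calls moved likewise, to 344 higher and 266 lower with quantile normalization and 412 and 230 with median of ratios scaling, against 677 and 174 as deposited. Of the 3513 genes above, 2307 stayed above with quantile normalization, and of the 961 below, 865 stayed below. Differences are therefore given as deposited. List medians are read against the 0.14 of all genes, and a later figure gives them under each scaling. Counts under each scaling are given for some lists only. List counts can be read against the 22.2% above and 6.08% below of all genes tested. Some genes are in more than 1 list, such as Dcn in the fibrocyte and matrix lists, so list counts are not independent.

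Genes above were longer than genes below. Their median exon length was 5286.5 bases, against 2607 bases for genes below and 3943 bases over all genes tested. With the genes split into 5 equal groups by exon length, 35.0% of the longest group lay above and 1.46% below, whereas in the shortest group 8.62% lay above and 9.86% below. The median log2 difference between 9 and 1 month was 0.62 in the longest group and -0.088 in the shortest, and that between 9 and 26 months was 0.082 and 0.023. The trend of the contrast with length thus came mostly from the comparison with 1 month. After each library's dependence on exon length was taken out, 2364 genes lay above and 2478 below. That step also recentred the libraries, and the median log2 difference over all genes moved from 0.14 to -0.029. The change in these counts therefore cannot be divided between length and scaling. The part of length in single genes was not tested beyond this alternative. GC content was similar, with medians of 51.8% above, 51.1% below and 49.9% over all genes tested.

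**Figure D2:**
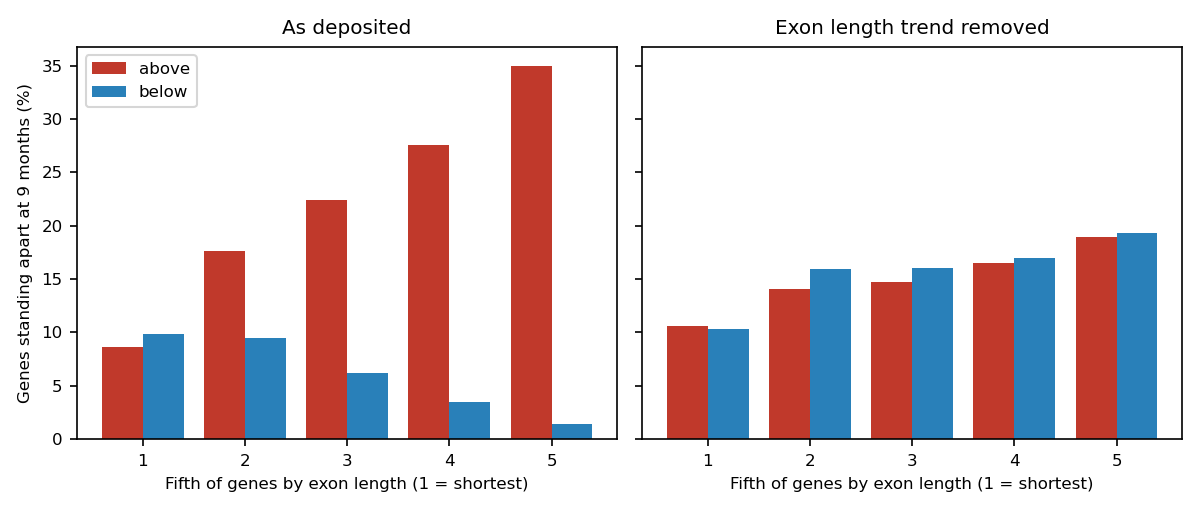
Bars give the percent of genes in each of 5 equal groups by exon length, shortest first, that stood apart at 9 months, above in red and below in blue, with values as deposited on the left and with the length trend removed on the right. As deposited, the share above climbs to 35.0% in the longest group while the share below drops to 1.46%. With the trend removed both are between 10.3% and 19.3% in every group.

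The 15 genes with the largest gap between nearest libraries are described in each direction, among called genes of at least 5 RPKM. Ttr, which encodes transthyretin, a carrier of thyroxine and retinol, had the largest gap above (chromosome 18, 20665280 to 20674321, GRCm38). It had 34.5, 38.5 and 34.2 RPKM at 9 months, against 3.12, 4 and 3.5 RPKM at 1 month and 1.15, 1.2 and 1.18 RPKM at 26 months. The lowest 9-month library was 8.37-fold above the highest of the others (log2 difference 4.06, SE 0.073, limma adjusted p = 2.76e-09). Dcn encodes decorin, a small proteoglycan that binds collagen, and had 70.8, 63.5 and 68.5 RPKM at 9 months, against 15.8, 14.2 and 14.8 RPKM at 1 month and 12.9, 12 and 12.7 RPKM at 26 months. Both other ages were at about the same level, and the difference was 4.92-fold (log2 difference 2.3, SE 0.049, limma adjusted p = 4.90e-09). Efemp1, an extracellular matrix glycoprotein of the fibulin family, had 23.8, 19.8 and 24 RPKM at 9 months, against 5.1, 5.55 and 4.83 RPKM at 1 month and 3.83, 3.73 and 3.92 RPKM at 26 months. Its 9-month values were all at least 3.52-fold above the rest.

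Enzymes, transporters and regulators followed. Stk11, the kinase LKB1 that activates AMP-activated kinase, had 16.4, 18.2 and 16.7 RPKM at 9 months, against 3.88, 4.83 and 4.67 RPKM at 1 month and 3.77, 3.85 and 3.7 RPKM at 26 months (log2 difference 2.03, SE 0.069, limma adjusted p = 5.22e-08). Cndp1, a dipeptidase that cleaves carnosine, had 5.7, 5.22 and 5.17 RPKM at 9 months, against 1.43, 1.52 and 1.52 RPKM at 1 month and 0.525, 0.525 and 0.5 RPKM at 26 months. Here the 26-month libraries were the lowest. A2m, a broad protease inhibitor of extracellular fluid, showed the opposite order of the other ages, with 6.7, 6.4 and 6.85 RPKM at 9 months, against 0.45, 0.3 and 0.375 RPKM at 1 month and 1.98, 1.93 and 1.95 RPKM at 26 months. Slco1c1, a thyroxine transporter known from brain vessels, had 13, 11.2 and 12.7 RPKM at 9 months, against 3.58, 3.4 and 3.12 RPKM at 1 month and 3.7, 3.85 and 3.4 RPKM at 26 months. Cd151, a tetraspanin that associates with laminin-binding integrins, had 39, 43.6 and 39.2 RPKM at 9 months, against 12.6, 13.1 and 13.4 RPKM at 1 month and 11, 11.2 and 10.5 RPKM at 26 months. Neither gene differed between 1 and 26 months by more than a log2 of 1. Rarg, a retinoic acid receptor, was 3.99-fold higher and Klf4, a zinc finger transcription factor, 2.87-fold. The remaining genes of the 15, Lypd2, Chtf8, Hspa1b, Slc26a7 and Slc4a11, had gaps of 3.66, 3.01, 3.67, 3.01 and 2.74-fold. All 15 stood apart and were called under quantile normalization, median of ratios scaling and removal of the length trend, and all 15 were also called without any 1 library.

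**Figure D3:**
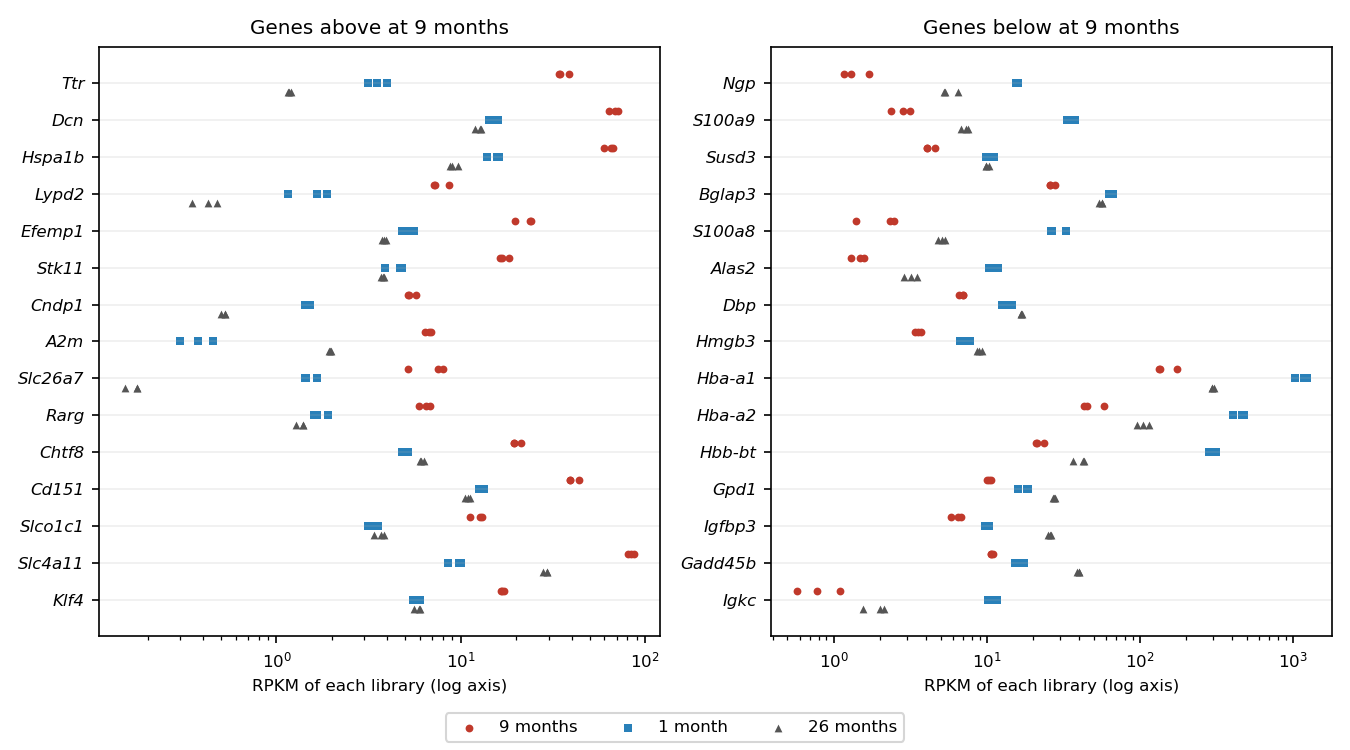
RPKM of each library (log axis) for the 15 genes above and the 15 genes below with the largest gaps, in order of the gap, with 3 points per age. No 9-month point overlaps another age in any of the 30 genes.

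Of 20 tested genes of hormone carriers, receptors and stress hormone signalling, 14 lay above and 1 below, against 22.2% and 6.08% of all genes. Their median log2 difference was 0.57. Under the scalings and the length correction 8 or 9 lay above and 1 to 3 below. Crhbp, whose product binds and sequesters corticotropin-releasing hormone (chromosome 13, 95431371 to 95444924), had 284, 285 and 283 RPKM at 9 months, against 107, 107 and 105 RPKM at 1 month and 6.5, 6.92 and 6.67 RPKM at 26 months (log2 difference 3.4, SE 0.030, limma adjusted p = 1.22e-11). The 9-month libraries were highest, and the 26-month libraries lay far below those of 1 month (log2 difference between 26 and 1 month -3.97). Thra, a thyroid hormone receptor, had 14, 15.9 and 14.2 RPKM at 9 months, against 5.58, 6.8 and 6.15 RPKM at 1 month and 7.33, 7.4 and 7.3 RPKM at 26 months, and it was no longer called with median of ratios scaling or the length trend removed. Nr3c2, the mineralocorticoid receptor, averaged 5.86 ± 0.313 RPKM at 9 months, against 2.62 ± 0.0901 RPKM at 1 month and 3.99 ± 0.166 RPKM at 26 months (SD, n = 3 here and below). Sgk1, a kinase induced by corticosteroids, was the member below, with 118, 96.5 and 121 RPKM at 9 months, against 153, 145 and 148 RPKM at 1 month and 166, 168 and 172 RPKM at 26 months.

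Genes of Reissner's membrane, the tectorial membrane and the organ of Corti, other parts of the cochlear duct, had 6 of 13 tested members above and none below. Of the 6, Tectb passed the filter on low values through the 9-month libraries alone, and Otog, at 0.125, 0.175 and 0.15 RPKM at 9 months, against 0.05, 0.075 and 0.05 RPKM at 1 month and 0.1, 0.075 and 0.075 RPKM at 26 months, lay near it. Over all genes tested, 78 of the 3513 above passed the filter in this way. With quantile normalization or the length trend removed, 4 members of the list lay above and 1 below. Median of ratios scaling left 5 above and none below. Vmo1, the homolog of a vitelline membrane protein, had 328, 373 and 319.6 RPKM at 9 months, against 126, 137 and 135 RPKM at 1 month and 15.6, 15.5 and 14.8 RPKM at 26 months (log2 difference 2.91, SE 0.054, limma adjusted p = 2.76e-09). Slc26a7, an anion transporter found in mouse Reissner's membrane, had 7.47, 5.17 and 8.05 RPKM at 9 months, against 1.65, 1.43 and 1.45 RPKM at 1 month and 0.15, 0.175 and 0.175 RPKM at 26 months. Ceacam16, a component of the tectorial membrane, had 15, 18 and 14.3 RPKM at 9 months, against 10.6, 13.3 and 12.8 RPKM at 1 month and 2.55, 1.98 and 2.67 RPKM at 26 months, and it was no longer called when the other 6 libraries were treated as 1 group. In Vmo1, Slc26a7 and Ceacam16 the order was 9 months highest, 1 month next and 26 months lowest, which not every member of the list shared. The summed level of the list was 366 to 413 RPKM at 9 months, against 159 to 172 RPKM at 1 month and 27.5 to 28.7 RPKM at 26 months. Most of it was Vmo1, and without Vmo1 it was 40.4 to 46.4 RPKM at 9 months, against 33.3 to 34.9 RPKM at 1 month and 12 to 13.9 RPKM at 26 months. Since these are bulk libraries, more cells of a type and more RNA per cell cannot be told apart, and their part in the difference was not tested. Of 16 hair cell genes, 7 were tested and 3 lay above, with a summed level of 4.22 to 5.28 RPKM at 9 months, against 2.85 to 2.95 RPKM at 1 month and 2.27 to 2.73 RPKM at 26 months. The share above over all genes tested was 22.2%. The 3 were Ocm and, at only 0.417 and 0.283 RPKM on average at 9 months, Calb2 and Lhfpl5. With quantile normalization 1 lay above, and with median of ratios scaling 3. With the length trend removed 3 lay above and 1 below. Slc26a5, Otof, Tmc1 and Strc, which define hair cells, did not reach the filter.

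Most spiral ligament fibrocyte genes lay above: 13 of 18 tested members were above and none below, and 10 were called higher. Their median log2 difference was 1.04, the highest of the lists, and it stayed between 0.87 and 0.97 under both scalings and the length correction. With quantile normalization 12 lay above and none below. The counts were 12 and 1 with median of ratios scaling and 13 and 1 with the length trend removed. As deposited, Lum, Ogn, Slc12a7, Crym and Vim overlapped. Of these, Slc12a7, Crym and Vim averaged highest at 26 months and Lum at 1 month. Coch, the cochlin of the ligament matrix, had 350.2, 307 and 347 RPKM at 9 months, against 52.4, 49.7 and 49.4 RPKM at 1 month and 155, 156 and 159 RPKM at 26 months (log2 difference 1.91, SE 0.046, limma adjusted p = 9.39e-09). Slc4a11, a membrane transporter of the bicarbonate transporter family, had 83.8, 87.5 and 80.6 RPKM at 9 months, against 8.47, 9.72 and 10.1 RPKM at 1 month and 29.3, 29.3 and 27.9 RPKM at 26 months. For both, the 26-month libraries lay between those of 9 and 1 month. Otos, otospiralin of fibrocytes, averaged 107 ± 10 RPKM at 9 months, against 29.6 ± 1.78 RPKM at 1 month and 45 ± 1.6 RPKM at 26 months. The summed level of the list was 908 to 932 RPKM at 9 months, against 280 to 293 RPKM at 1 month and 538 to 539 RPKM at 26 months. The ligament adjoins the dissected tissue, and its part in other results was not tested.

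Matrix genes formed the next group. Of 33 tested glycoprotein and proteoglycan genes, 21 lay above and 1 below, against 22.2% and 6.08% of all genes, and 9 were called higher. Under the scalings 18 lay above, and 15 with the length trend removed. The summed level of the list was nevertheless highest at 1 month. It was 536 to 550 RPKM at 9 months, against 596 to 626.5 RPKM at 1 month and 353 to 363 RPKM at 26 months. Without Sparc, its most abundant member, the sum was 368 to 373 RPKM at 9 months, against 207 to 219 RPKM at 1 month and 247 to 252 RPKM at 26 months. Fn1, fibronectin, had 15, 15.2 and 14.4 RPKM at 9 months, against 4.55, 4.7 and 4.83 RPKM at 1 month and 6.17, 6.45 and 6.4 RPKM at 26 months (log2 difference 1.43, SE 0.038, limma adjusted p = 1.41e-08). Lama5, a laminin chain of basement membranes, had 7.83, 8.75 and 7.83 RPKM at 9 months, against 2.25, 2.75 and 2.6 RPKM at 1 month and 3.77, 3.77 and 3.73 RPKM at 26 months. Postn, periostin, had 4.53, 3.88 and 4.55 RPKM at 9 months, against 1.6, 1.45 and 1.48 RPKM at 1 month and 1.75, 1.8 and 1.8 RPKM at 26 months. The 9-month libraries were at least 2.05-fold above any other library in these genes. The member below was Fbln5, of elastic fibres, with 5.67, 5.45 and 5.25 RPKM at 9 months, against 6.2, 6.38 and 6.62 RPKM at 1 month and 10.5, 10.4 and 10.4 RPKM at 26 months.

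Collagens gave 12 of 24 tested genes above and 1 below, against 22.2% and 6.08% of all genes, with 5 called higher. Col11a2 and Col2a1, fibrillar collagens of cartilage and the tectorial membrane, both lay above. Col11a2 averaged 42.4 ± 1.94 RPKM at 9 months, against 11.1 ± 0.998 RPKM at 1 month and 22.4 ± 0.666 RPKM at 26 months, and Col2a1 averaged 6.76 ± 0.525 RPKM at 9 months, against 1.59 ± 0.188 RPKM at 1 month and 2.87 ± 0.101 RPKM at 26 months. Col8a1, a short-chain collagen, had 10.5, 10.2 and 10.8 RPKM at 9 months, against 5.12, 5.4 and 5.25 RPKM at 1 month and 2.8, 2.7 and 2.8 RPKM at 26 months. Col11a1 was below, with 0.583 ± 0.0629 RPKM at 9 months, against 0.892 ± 0.0946 RPKM at 1 month and 0.933 ± 0.0289 RPKM at 26 months. Col1a1, the main collagen of bone, overlapped. With the length trend removed 8 collagens lay above and 2 below.

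Of 18 tested genes that make the endocochlear potential, 10 lay above at 9 months and none below, and 4 were called higher. Some are also counted in cell type lists, such as Gjb2 (basal), Esrrb (marginal) and Kcnj16 (spindle and root). The median log2 difference of the endocochlear list, 0.26, was not far from the 0.14 of all genes. In this list 6 lay above and 1 below with median of ratios scaling. The counts were 7 and 1 with the length trend removed and 10 and 0 with quantile normalization. Gjb2, the gap junction protein connexin 26, had 752, 718 and 749.8 RPKM at 9 months, against 309, 303 and 302 RPKM at 1 month and 336, 337 and 334 RPKM at 26 months (log2 difference 1.21, SE 0.031, limma adjusted p = 1.16e-08). It was more than 2-fold higher at 9 months than in any library of the other ages. Its partner Gjb6, connexin 30, had 752, 747 and 757 RPKM at 9 months, against 612, 621 and 612 RPKM at 1 month and 468, 473 and 464 RPKM at 26 months, a smaller difference (log2 0.49). Esrrb, a nuclear receptor needed in marginal cells, had 39.1, 39.6 and 38 RPKM at 9 months, against 20, 20.5 and 20.5 RPKM at 1 month and 13.6, 13.8 and 13.8 RPKM at 26 months. Kcnj16, a potassium channel subunit of spindle and root cells, averaged 7.75 ± 0.888 RPKM at 9 months, against 3.32 ± 0.27 RPKM at 1 month and 3.52 ± 0.126 RPKM at 26 months. Esrrb was no longer called with the length trend removed, and Kcnj16 under that or either scaling.

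The main potassium channel genes differed little or did not stand apart. Kcnq1, the marginal cell channel, had 167, 178 and 164 RPKM at 9 months, against 147, 159 and 158 RPKM at 1 month and 156, 155 and 152 RPKM at 26 months and stood apart by a gap of 1.03-fold. Its subunit Kcne1 had 782, 787 and 753 RPKM at 9 months, against 694, 777 and 759.5 RPKM at 1 month and 691, 687 and 686 RPKM at 26 months, and the ages overlapped. Kcnj10, the channel of intermediate cells, had 264, 245 and 259.8 RPKM at 9 months, against 173, 171 and 169 RPKM at 1 month and 313, 313 and 311 RPKM at 26 months, so the 9-month libraries lay between the other ages. Slc12a2, the sodium, potassium and chloride cotransporter of marginal cells, had 960.1, 716 and 999.7 RPKM at 9 months, against 614, 552 and 567 RPKM at 1 month and 905, 907 and 925 RPKM at 26 months, with library B low at 9 months. Bsnd, which encodes barttin of marginal cells, overlapped, with a log2 difference of -0.033.

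**Figure D4:**
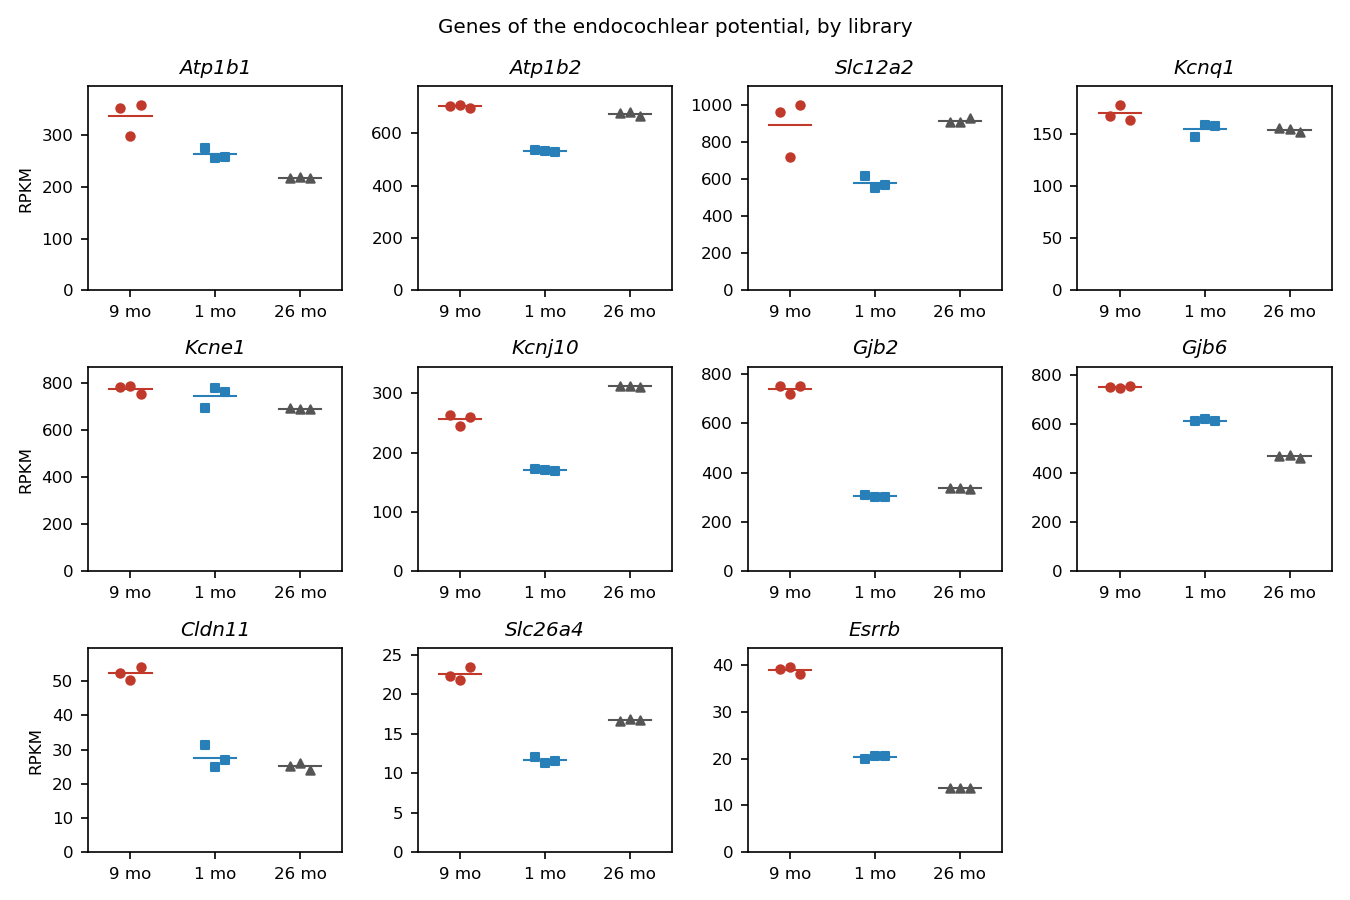
RPKM of each library (points) and the mean of each age (lines) for 11 genes of the endocochlear potential, with each axis starting at 0. Gjb2 and Esrrb at 9 months sit clear of both other ages, whereas the points of Kcne1 overlap and Kcnj10 is highest at 26 months.

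Basal cell genes had 7 of 9 tested members above, with a median log2 difference of 0.99 that stayed between 0.70 and 0.81 under the other scalings and the length correction. Cldn11, the tight junction protein of basal cells, had 52.3, 50.2 and 54.2 RPKM at 9 months, against 31.2, 24.9 and 26.8 RPKM at 1 month and 25.2, 26.2 and 24 RPKM at 26 months. Tjp1, a scaffold of tight junctions, had 13.6, 11 and 14.1 RPKM at 9 months, against 4.83, 4.22 and 4.4 RPKM at 1 month and 7.1, 7.12 and 7.3 RPKM at 26 months. Both stood clear of the other ages, although the log2 difference of Cldn11, 0.99, missed the threshold, which it passed without library B. Tjp1 was no longer called with median of ratios scaling or the length trend removed. Marginal cell genes had 8 of 17 above and none below, with a median of 0.18, close to that of all genes, and 2 above with the length trend removed. Spindle and root cell genes had 4 of 10 above and none below. Their median log2 difference of 0.46 fell to 0.049 with the length trend removed, when 3 lay above and 1 below. Intermediate cell and melanin genes had 3 of 16 above, Sox10, Kit and Slc26a4, and 5 below, against 22.2% and 6.08% of all genes. Slc26a4 is also counted among the spindle and root cell genes above. Sox10, a transcription factor of melanocytes, had 112, 128 and 114 RPKM at 9 months, against 53, 62.4 and 62.8 RPKM at 1 month and 64.3, 62.6 and 62.5 RPKM at 26 months. The inward rectifier Kcnj13 lay below, with 152, 147 and 148 RPKM at 9 months, against 211, 211 and 214 RPKM at 1 month and 188, 189 and 186 RPKM at 26 months. Mlana, a melanosome protein, also lay below and averaged 260.3 ± 21.5 RPKM at 9 months, against 323 ± 7.57 RPKM at 1 month and 327 ± 10.3 RPKM at 26 months. In this list 2, 6 and 6 lay below with quantile normalization, median of ratios scaling and the length trend removed.

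Heat shock and chaperone genes had 11 of 20 tested members above and none below, with a median log2 difference of 0.38. With quantile normalization 12 lay above, and 8 with median of ratios scaling or the length trend removed, when 1 lay below. Hspa1b, a stress-inducible Hsp70, had 65, 59.5 and 66.6 RPKM at 9 months, against 13.9, 16.1 and 15.7 RPKM at 1 month and 8.72, 9 and 9.68 RPKM at 26 months (log2 difference 2.42, SE 0.059, limma adjusted p = 9.39e-09). Its neighbour Hspa1a encodes a nearly identical protein, so reads can be shared between them and their split is uncertain. Hspa1a averaged 24.9 ± 2.71 RPKM at 9 months, against 11.2 ± 0.913 RPKM at 1 month and 7.69 ± 0.44 RPKM at 26 months. Dnajb1, an Hsp40 that works with Hsp70, had 30.1, 30.4 and 30.6 RPKM at 9 months, against 11.2, 12.8 and 12.5 RPKM at 1 month and 14.9, 14.8 and 14.7 RPKM at 26 months (log2 difference 1.17, SE 0.045, limma adjusted p = 8.63e-08). Hsp90aa1, the inducible Hsp90, had 92.3, 87.1 and 92.8 RPKM at 9 months, against 58.2, 51.2 and 52.6 RPKM at 1 month and 43, 46.3 and 43.6 RPKM at 26 months and missed the fold threshold. Chordc1, a co-chaperone of Hsp90, had 31.8, 23.6 and 33.8 RPKM at 9 months, against 19.5, 16.4 and 16.1 RPKM at 1 month and 13.5, 13.7 and 13.8 RPKM at 26 months, with library B low at 9 months, and was called without it. Hspa5, the endoplasmic reticulum member, and the mitochondrial Hspd1 overlapped, with log2 differences of -0.033 and 0.18.

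The promoters of Hspa1b and Chordc1 are shown because heat shock genes carry a known element there. The core of the heat shock element, GAANNTTC, is its own reverse complement and was searched in windows of 300 bases at RefSeq gene starts (GRCm38.p6), which were used for the 9097 tested genes with exactly 1 window. It was found in 7 of 10 windows of heat shock and chaperone genes, of which 5 of 5 belonged to genes above and 2 of 5 to genes that overlapped, against 5.73% of all windows. Over all genes above and below the shares were 5.09% and 4.68%. The windows of Hspa1a and Hspa1b were identical at 296 of 300 bases. Capitals mark the element in the windows of Hspa1b (chr17:34959189-34959488, minus strand) and Chordc1 (chr9:18292017-18292316, plus strand). A match describes the letters and not binding.
Hspa1b: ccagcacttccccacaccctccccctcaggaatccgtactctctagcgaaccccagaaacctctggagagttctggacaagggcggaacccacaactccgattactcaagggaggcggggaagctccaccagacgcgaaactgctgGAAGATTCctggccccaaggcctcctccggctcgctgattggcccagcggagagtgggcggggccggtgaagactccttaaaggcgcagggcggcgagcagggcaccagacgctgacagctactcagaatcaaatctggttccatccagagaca
Chordc1: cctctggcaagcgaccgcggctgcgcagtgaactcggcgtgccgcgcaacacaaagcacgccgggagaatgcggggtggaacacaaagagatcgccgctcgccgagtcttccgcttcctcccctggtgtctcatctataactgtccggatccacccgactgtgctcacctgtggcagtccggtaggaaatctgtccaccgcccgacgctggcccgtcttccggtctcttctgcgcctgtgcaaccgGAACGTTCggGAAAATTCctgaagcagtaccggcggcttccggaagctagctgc

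Of 21 tested genes of the Notch and Wnt pathways, 13 lay above and none below, against 22.2% and 6.08% of all genes. The model called 6 higher, and the median log2 difference was 0.58. Between 8 and 11 lay above under the scalings and the length correction. The receptor Notch1 had 4.88, 5.22 and 4.78 RPKM at 9 months, against 1.43, 1.65 and 1.55 RPKM at 1 month and 2.17, 1.95 and 2.05 RPKM at 26 months (log2 difference 1.43, SE 0.061, limma adjusted p = 1.62e-07), and Notch3, the receptor of mural cells, averaged 2.43 ± 0.0878 RPKM at 9 months, against 0.575 ± 0.0661 RPKM at 1 month and 0.967 ± 0.118 RPKM at 26 months. Axin2, a target of Wnt signalling, had 1.1, 1.02 and 0.975 RPKM at 9 months, against 0.4, 0.325 and 0.375 RPKM at 1 month and 0.325, 0.375 and 0.35 RPKM at 26 months. Both pathways thus had a receptor or target more than 2-fold higher, at low levels, while Hes1, a Notch target, overlapped. Notch1 was no longer called with the length trend removed. In the insulin-like growth factor system, 6 of 14 tested genes lay above and 3 below. The binding protein Igfbp5 had 97.4, 90.3 and 96.1 RPKM at 9 months, against 11, 10.7 and 10.7 RPKM at 1 month and 47.3, 46.6 and 47.9 RPKM at 26 months (log2 difference 2.06, SE 0.034, limma adjusted p = 2.07e-09), whereas Igfbp3 had 6.47, 5.85 and 6.78 RPKM at 9 months, against 9.75, 9.97 and 10.3 RPKM at 1 month and 26.1, 25.2 and 26.3 RPKM at 26 months (log2 difference -1.33, SE 0.049, limma adjusted p = 7.45e-08). The binding proteins therefore differed in direction, and both were called under every scaling. The receptor Igf1r averaged 4.79 ± 0.118 RPKM at 9 months, against 1.85 ± 0.05 RPKM at 1 month and 2.4 ± 0.0661 RPKM at 26 months, and was no longer called under the scalings or the length correction.

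The genes with the largest gaps below were mostly of blood cells. Ngp, of neutrophil granules, had 1.18, 1.7 and 1.3 RPKM at 9 months, against 16, 15.6 and 15.7 RPKM at 1 month and 5.25, 5.38 and 6.45 RPKM at 26 months (log2 difference -2.7, SE 0.11, limma adjusted p = 9.92e-08). S100a9, a subunit of the neutrophil protein calprotectin, had 2.38, 3.17 and 2.85 RPKM at 9 months, against 37.5, 33.5 and 35.2 RPKM at 1 month and 7.38, 7.55 and 6.83 RPKM at 26 months (log2 difference -2.49, SE 0.082, limma adjusted p = 4.62e-08), and its partner S100a8 averaged 2.08 ± 0.588 RPKM at 9 months, against 28.6 ± 3.65 RPKM at 1 month and 5.08 ± 0.288 RPKM at 26 months. In these genes the 1-month libraries were the highest and those of 26 months intermediate. Of 15 neutrophil genes, all were tested, 10 lay below, none above and 11 were called lower. Their median log2 difference was -2.04, and 11 lay below under each scaling. Not every member shared the order of ages. Elane, Mpo and Csf3r averaged higher at 26 than at 1 month, and Retnlg and Mmp9 slightly lower at 26 than at 9 months. The summed level was 8.38 to 10.6 RPKM at 9 months, against 99.4 to 110.0 RPKM at 1 month and 27.8 to 28.2 RPKM at 26 months.

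Red cell genes had 6 of 13 tested members below, none above and 8 called lower. The haemoglobin chain Hba-a1 had 134, 176 and 134 RPKM at 9 months, against 1023, 1222 and 1172 RPKM at 1 month and 305, 297 and 295 RPKM at 26 months. Hba-a2 codes for the same protein, so the split between them is uncertain. Alas2, the first enzyme of haem synthesis in red cells, had 1.3, 1.5 and 1.57 RPKM at 9 months, against 10.4, 11.6 and 11.9 RPKM at 1 month and 3.5, 3.2 and 2.9 RPKM at 26 months (log2 difference -1.98, SE 0.079, limma adjusted p = 1.12e-07). The list summed to 625 to 694 RPKM at 9 months, against 3419 to 3522 RPKM at 1 month and 930.0 to 971 RPKM at 26 months. Slc4a1, the anion exchanger of the red cell membrane, overlapped between 9 and 26 months and averaged 0.117 ± 0.052 RPKM at 9 months, against 3.08 ± 0.363 RPKM at 1 month and 0.183 ± 0.0289 RPKM at 26 months. Igkc, an immunoglobulin chain, had 1.1, 0.775 and 0.575 RPKM at 9 months, against 11.3, 10.2 and 11.8 RPKM at 1 month and 1.55, 2.15 and 2 RPKM at 26 months. Lymphocyte genes had 2 of 11 tested members below, Igkc and Jchain, and 5 called lower. Jchain averaged only 0.0167 RPKM at 9 months. Cd79a, Cd79b and Ighm were called but overlapped, and Ighm averaged 0.667, 6.82 and 0.8 RPKM at 9, 1 and 26 months. The T cell genes Cd3e, Cd3d, Cd3g, Cd4 and Trbc2 overlapped and were highest at 26 months. Cd3g averaged 0.125, 0.00833 and 1.41 RPKM at 9, 1 and 26 months. Macrophage genes had 2 of 22 below, Cx3cr1 and Aif1, against 6.08% of all genes, and 7 to 11 below under the alternatives. They summed to 412 to 429 RPKM at 9 months, against 233 to 244 RPKM at 1 month and 1284 to 1304 RPKM at 26 months, most of it from Lyz2, a lysozyme. Without Lyz2 the sum was 157 to 170.2 RPKM at 9 months, against 148 to 159 RPKM at 1 month and 344 to 346 RPKM at 26 months, so 9 months and 1 month overlapped. The part of blood and immune cells in other results was not tested.

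Outside the blood genes, Susd3 had 4.1, 4.62 and 4.08 RPKM at 9 months, against 9.95, 11.1 and 11.2 RPKM at 1 month and 9.85, 9.88 and 10.3 RPKM at 26 months. Bglap3, related to the bone protein osteocalcin, had 25.8, 27.7 and 25.7 RPKM at 9 months, against 62.8, 64.2 and 66.9 RPKM at 1 month and 56.5, 56.1 and 54 RPKM at 26 months (log2 difference -1.18, SE 0.038, limma adjusted p = 4.19e-08). For both, the other ages were close together and 9 months was 2.4-fold lower for Susd3 and 2.26-fold lower for Bglap3. Gadd45b, induced by stress and DNA damage, had 11.1, 10.7 and 10.6 RPKM at 9 months, against 15.3, 16.5 and 17.5 RPKM at 1 month and 40.2, 40.2 and 38.8 RPKM at 26 months, and Gpd1, a glycerol phosphate dehydrogenase, averaged 10.4 ± 0.325 RPKM at 9 months, against 17.6 ± 1.37 RPKM at 1 month and 27.5 ± 0.328 RPKM at 26 months. Here the 26-month libraries were the highest. Hmgb3, a chromatin protein, was 2.2-fold lower. All 15 genes with the largest gaps below stood apart and were called under both scalings and with the length trend removed, and all 15 were also called without any 1 library.

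Some genes of the respiratory chain lay below, and most overlapped. Of 13 mitochondrially encoded genes, 6 lay below and none above, but none was called, and the count was 2 with quantile normalization, 6 with median of ratios scaling and 4 with the length trend removed. mt-Co1, a subunit of cytochrome oxidase, had 3250.3, 2408 and 3280.3 RPKM at 9 months, against 6251, 5433 and 5597 RPKM at 1 month and 4333, 4430.5 and 4583 RPKM at 26 months (log2 difference -0.78). Library B was the lowest at 9 months. mt-Co3 had 7473, 5983 and 7668 RPKM at 9 months, against 16530.0, 13448 and 14145 RPKM at 1 month and 10040.0, 10431 and 10392 RPKM at 26 months. The mitochondrial share of summed RPKM was 5.33 to 8.44% at 9 months, against 10.4 to 13.1% at 1 month and 9.26 to 9.64% at 26 months. Of 27 nuclear-encoded genes of the chain, 10 lay below and none above, between 10 and 12 under the alternatives, and none was called. Their median log2 difference was -0.47 to 1 month but only -0.048 to 26 months. They summed to 4908 to 5392 RPKM at 9 months, against 7120 to 7218.5 RPKM at 1 month and 4956 to 5063 RPKM at 26 months. In sum, 9 and 26 months thus overlapped. Ndufa9, of complex I, averaged 62 ± 2.59 RPKM at 9 months, against 102 ± 4 RPKM at 1 month and 75.9 ± 2.83 RPKM at 26 months, and Sdhb, of complex II, 121 ± 9.75 RPKM at 9 months, against 164 ± 2.72 RPKM at 1 month and 149 ± 2.46 RPKM at 26 months. Cytosolic ribosomal protein genes had 1 of 30 above and 1 below, against 22.2% and 6.08% of all genes. Their median log2 difference was -0.056, with -0.19 to 1 month and 0.024 to 26 months.

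Of 19 tested clock genes 3 lay above and 2 below, shares not far from the 22.2% and 6.08% of all genes. Dbp, an output factor of the circadian clock, had 6.6, 7.05 and 6.95 RPKM at 9 months, against 12.7, 14.1 and 14.7 RPKM at 1 month and 16.9, 16.9 and 16.9 RPKM at 26 months (log2 difference -1.14, SE 0.050, limma adjusted p = 1.77e-07), and the clock repressor Ciart had 1.6, 1.57 and 1.55 RPKM at 9 months, against 1.82, 1.65 and 1.75 RPKM at 1 month and 18.1, 18.2 and 17.6 RPKM at 26 months. Ciart was just below 1 month and far below 26 months, and was no longer called when the other 6 libraries were treated as 1 group. Arntl, the activator BMAL1, lay above with 6.97, 6.25 and 6.78 RPKM at 9 months, against 3.55, 3.6 and 3.38 RPKM at 1 month and 3.8, 3.98 and 3.9 RPKM at 26 months, as did its partner Npas2 with 1.2, 1.3 and 1.3 RPKM at 9 months, against 0.5, 0.425 and 0.45 RPKM at 1 month and 0.575, 0.475 and 0.55 RPKM at 26 months. Between 4 and 7 clock genes lay below under the scalings and the length correction. The other 14 of 19 tested clock genes overlapped, among them Per1, Per2, Cry1 and Nr1d1. The time of day of collection is not given in the sources used here. The E-box CACGTG, bound by the BMAL1 complex, occurs 3 times in the promoter window of Ciart (chr3:95882179-95882478, minus strand), which is shown for that reason with the matches in capitals. It was in 3 of 12 searched windows of clock genes and in 9.93% of all windows.
Ciart: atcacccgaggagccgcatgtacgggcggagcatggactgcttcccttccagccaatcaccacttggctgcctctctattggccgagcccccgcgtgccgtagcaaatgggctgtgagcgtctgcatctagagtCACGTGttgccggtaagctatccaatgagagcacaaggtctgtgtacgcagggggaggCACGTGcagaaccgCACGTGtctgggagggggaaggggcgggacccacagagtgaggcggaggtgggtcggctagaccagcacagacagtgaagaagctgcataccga

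The counts of the interferon, immediate early and metallothionein lists can be read against the 22.2% above and 6.08% below of all genes. Interferon response genes had 5 of 21 tested members below and 1 above, none called, and 8 or 9 below under the scalings and the length correction. Ifit3, an interferon-induced protein, had 30.9, 30.6 and 28.6 RPKM at 9 months, against 41.4, 41.7 and 40.8 RPKM at 1 month and 62.2, 62.3 and 60.1 RPKM at 26 months. Usp18, a protease that removes the interferon-induced modifier ISG15, averaged 8.23 ± 0.052 RPKM at 9 months, against 12.7 ± 0.0433 RPKM at 1 month and 15.4 ± 0.715 RPKM at 26 months. Immediate early genes had 2 of 22 above, Klf4 and Ier5, and 2 below, Cyr61 and Myc. Cyr61, a matricellular protein, had 16.9, 17.3 and 15.5 RPKM at 9 months, against 24.5, 25.4 and 25.6 RPKM at 1 month and 33.8, 33.1 and 32.5 RPKM at 26 months, while Fos, Jun and Egr1 overlapped. Between 4 and 7 of the list lay below under the alternatives. Metallothionein and redox genes had 3 of 21 below, with Mt1 at 147, 206 and 149 RPKM at 9 months, against 216, 221 and 226 RPKM at 1 month and 469, 474 and 443 RPKM at 26 months, and 1 above, Sod1, the cytosolic superoxide dismutase, with 139 ± 12.3 RPKM at 9 months, against 125 ± 4.27 RPKM at 1 month and 121 ± 1.85 RPKM at 26 months. Sod1 overlapped with median of ratios scaling and with the length trend removed. Antigen presentation genes had none of 14 apart.

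Endothelial genes had 4 of 15 above and 2 below, close to the 22.2% above of all genes. With quantile normalization 2 lay above and 3 below. The counts were 3 and 3 with median of ratios scaling and 2 and 2 with the length trend removed. Cdh5, the cadherin of endothelial junctions, had 3, 3.27 and 3.15 RPKM at 9 months, against 0.775, 0.825 and 0.775 RPKM at 1 month and 1.75, 1.62 and 1.85 RPKM at 26 months (log2 difference 1.34, SE 0.059, limma adjusted p = 1.82e-07), whereas Plvap, of fenestrated vessels, averaged 3.51 ± 0.383 RPKM at 9 months, against 4.94 ± 0.189 RPKM at 1 month and 4.87 ± 0.163 RPKM at 26 months. Mural cell genes likewise had 3 of 11 above, with Notch3 and Rgs5 among them, and 2 below, the contractile genes Acta2 and Tagln. Acta2, smooth muscle actin, had 3.45, 4.05 and 3.17 RPKM at 9 months, against 5.08, 5.25 and 5.17 RPKM at 1 month and 5.85, 6.38 and 5.8 RPKM at 26 months. Rgs5 was no longer called under either scaling or the length correction. Osteoblast and bone genes had 2 of 9 above and Spp1, osteopontin, below with 6870.2, 6251 and 6847 RPKM at 9 months, against 12922, 12228 and 12274 RPKM at 1 month and 7702, 7764 and 7606 RPKM at 26 months. Cell cycle, histone and nerve lists had at most 3 genes apart each.

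**Figure D5:**
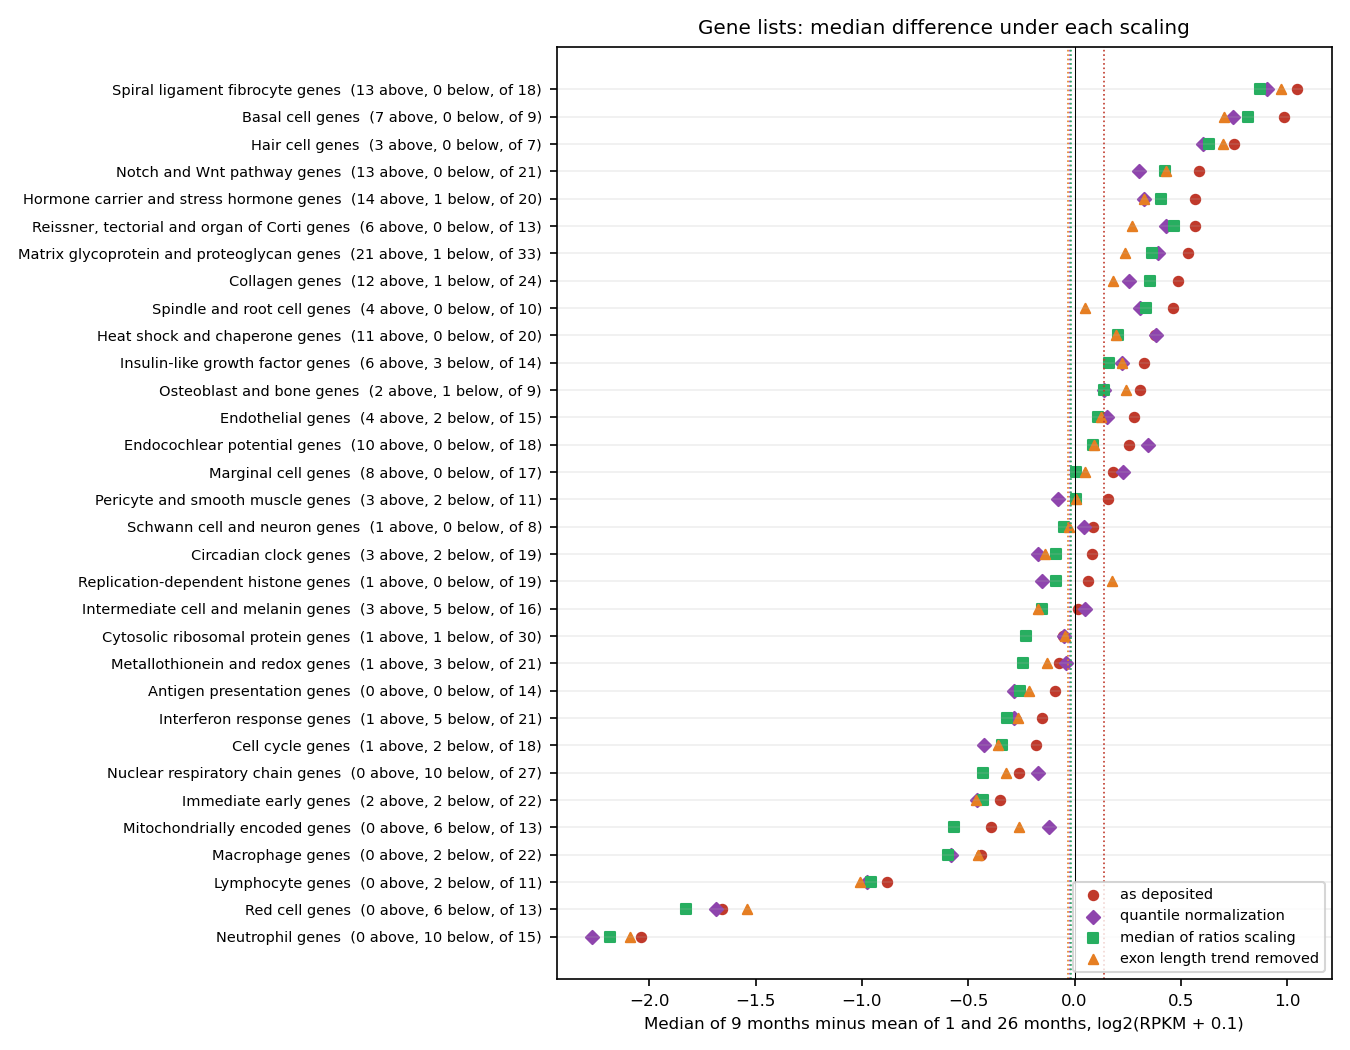
Median log2 difference of each list under 4 scalings, with dotted lines at the median of all genes tested under the same scaling and the counts of genes above and below as deposited. Fibrocyte and basal cell genes lie right of these lines and neutrophil and red cell genes left of them with every scaling, whereas lists near the middle change side.

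The comparison of 26 with 1 month gives how far the other ages differed in the genes that stood apart at 9 months. The model called 1570 genes higher (9.93%) and 396 lower (2.51%) at 26 than at 1 month. Of all genes above, 95.5% were not called between 26 and 1 month, and of all genes below 95.1%, against 87.6% of all genes tested. Of the 645 genes above and called higher, 533 were not called between 26 and 1 month, 61 were higher at 26 months and 51 lower. Of the 90 genes below and called lower, 51 were not called, 19 were higher and 20 lower. Genes whose other ages differ much stand apart less easily, so these counts are a description. For the single comparisons, which share the 9-month libraries, the model called 1594 genes higher (10.1%) and 233 lower (1.47%) at 9 months than at 1 month, and 640 higher (4.05%) and 519 lower (3.28%) at 9 than at 26 months. Genes above had median log2 differences of 0.75 to 1 month and 0.51 to 26 months, and genes below of -0.36 and -0.40, against 0.27 and 0.028 over all genes tested.

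Just inside the rule were genes with no practical distance from the other ages. Among genes of at least 5 RPKM, Dnaja1, Emc1, Dctn4, Wrb and Zfp651 lay above and Atp5a1, Saraf, Btf3l4, Hibadh and F11r below with gaps of at most 1.002-fold. Dnaja1, a co-chaperone of Hsp70, had 32.5, 25.1 and 33.3 RPKM at 9 months, against 25.1, 21.2 and 22.5 RPKM at 1 month and 19.2, 19.7 and 19.8 RPKM at 26 months, and its lowest 9-month value nearly met the highest 1-month value. Just outside were Mtmr3, Ppp1r12c, Cdkn2aip, Pgrmc2 and Capn5 above and Dapk3, Tmc4, 1110032A03Rik, Borcs7 and Ostf1 below. Mtmr3 had 15.9, 15.9 and 16 RPKM at 9 months, against 8.57, 9.2 and 8.75 RPKM at 1 month and 15.9, 15.9 and 15.4 RPKM at 26 months. In all, 1046 genes above and 506 below had gaps under 1.1-fold.

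Protein-coding genes made up 94.0% of the genes above and 95.0% of those below, against 89.2% of all genes tested. On the X chromosome 20.3% of 492 tested genes lay above and 3.86% below, and the autosomes ranged from 16.5% to 26.4% above. Genes below were expressed at a higher level than genes above, with a median RPKM over the 9 libraries of 12.5 and 2.66, against 3.32 over all genes tested. Among genes that were also called the order was reversed, with medians of 0.686 for the 90 below and 1.39 for the 645 above.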

How the data were processed

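RNA from pools of stria vascularis cells was amplified with SMARTer chemistry, made into Nextera libraries and sequenced on a HiSeq instrument. The authors mapped paired reads to GRCm38 (mm10) with CLC Genomics Workbench and deposited RPKM for 48709 genes. Deposited RPKM were nearly all (99.98%) multiples of 0.025, so reads and depth are unknown. The deposited log2 fold changes and p-values between ages were not used. Annotation was GENCODE M21, matched for 48349 genes.

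log2(RPKM + 0.1) of 15806 genes was fitted with limma 3.58.1 in R 4.3.3 (1 mean per age, empirical Bayes with trend, two-sided), and 9 months was set against the average of the other ages. The fit was tested on simulated data. Named genes were the 15 with the largest gap in each direction (at least 5 RPKM, called, no predicted genes or pseudogenes), up to 4 genes per list of at least 1 RPKM, the endocochlear genes of at least 5 RPKM, the 5 genes nearest the rule on each side and sex-linked genes. Other members were named after their values were seen, and a few genes that the rule names are not reported here. Members and the 33 lists were chosen with earlier results of these data known. Alternatives were other pseudocounts, filters, scalings, thresholds, weights, fits, averaging of near-identical libraries and leaving out each library. Python 3.11.15 with pandas 2.3.3 and numpy 2.4.6 summarised the fits, and matplotlib 3.10.9 drew the plots.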

Additional observations from a re-analysis of the deposited data

How the results depend on the processing

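Genes above numbered 2364 to 4472 under the alternatives to values, filters and scaling, against 3513, and 3571 to 5053 without 1 library. Genes below were 1986 with quantile normalization, 2163 with median of ratios scaling, 2478 with the length trend removed and 1450 with near-identical libraries averaged, against 961, and 1006 to 1562 without 1 library. Genes called higher were 158 with a pseudocount of 1, 1067 with 0.025, 344 with quantile normalization, 412 with median of ratios scaling, 395 with the length trend removed and 7175 with no fold threshold, against 677, and 662 to 755 without 1 library. Genes called lower were 35 with a pseudocount of 1, 395 with 0.025, 79 with a filter of 1 RPKM, 266 with quantile normalization, 95 with the other 6 libraries as 1 group and 3099 with no fold threshold, against 174, and 170 to 198 without 1 library. Near-identical libraries averaged left 646 called higher and 176 lower.

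The letters of the libraries showed no clear pairing across ages. Correlations of deviations ran from -0.051 to 0.23 between same-lettered libraries and from -0.31 to 0.21 between those of different letters. The highest was between the B libraries of 1 and 9 months, so pairing by letter is not excluded. With the letter as a replicate block, 678 genes were called higher and 174 lower, and none of the 144 named genes changed its call. No named gene's called difference changed sign under any alternative. Calls of named genes were lost for 19 with a pseudocount of 1, 12 with quantile normalization, 11 with median of ratios scaling and 17 with the length trend removed, and at most 3 under any other alternative. Depth is unknown, so differences at low RPKM could not be judged against counting error.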

Other observations

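Otx2, a homeobox transcription factor of the choroid plexus and retinal pigment epithelium, was under the RPKM minimum of the rule for named genes and is given here because its values stood out. It had 3.58, 2.98 and 3.25 RPKM at 9 months, against 1.35, 1.18 and 1.15 RPKM at 1 month and 0, 0.025 and 0.025 RPKM at 26 months, the order of ages seen in Ttr. Among the genes with a log2 difference above 3 were also 4 gene models on chromosome 5, 5031410I06Rik, Gm10220, Gm21663 and Gm21698, likewise chosen after their values were seen. Gm21698 had 5.33, 3.85 and 5.25 RPKM at 9 months, against 1.77, 1.55 and 1.68 RPKM at 1 month and 0.05, 0.075 and 0 RPKM at 26 months, and Gm10220 had 6.83, 5.17 and 6.72 RPKM at 9 months, against 1.23, 1.2 and 0.975 RPKM at 1 month and 0, 0.025 and 0.025 RPKM at 26 months. They lie close to each other (chromosome 5, 25982030 to 25988650 and chromosome 5, 26114764 to 26121421, GRCm38), and whether reads are shared among them was not tested.

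In the histone list, 1 of 19 tested genes stood apart, Hist2h3c1, with 3.65, 2.33 and 3.98 RPKM at 9 months, against 0.8, 0.425 and 0.6 RPKM at 1 month and 0.25, 0.225 and 0.225 RPKM at 26 months. Kit, a receptor of melanocytes, was the 1 intermediate cell gene called higher, with 0.725, 0.575 and 0.6 RPKM at 9 months, against 0.1, 0.125 and 0.125 RPKM at 1 month and 0.45, 0.55 and 0.425 RPKM at 26 months. Wnk2, a kinase of ion transport, was called higher in the marginal cell list with 10.2, 11.1 and 10.2 RPKM at 9 months, against 3.05, 3.4 and 3.4 RPKM at 1 month and 6.4, 6.28 and 6.38 RPKM at 26 months, and was no longer called with the length trend removed. By chromosome, the share of tested genes above was highest on chromosome 11 (26.4%) and lowest among the autosomes on chromosome 13 (16.5%).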
